A study of Mus musculus with 10 samples.

Results

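The myeloid C-type lectin receptors are a family of surface proteins that bind sugars, lipids or products of dead cells and pass the signal on through immunoreceptor motifs. The genes described here, Clec4d, Clec4n, Clec4e, Clec4a1, Clec4a2, Clec4a3, Clec5a, Clec7a and Clec12a, were chosen by name, and with measured values of these libraries known: Clec4d and Clec4n stood above adult microglia in culture and Clec4a2 was proposed to stand below. Of these 9 genes, 8 were measured, among 18281 gene symbols in all tables, and Clec7a was not analysed here. All 8 passed the filter on low counts, which kept 12155 genes.

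Microglia of C57BL/6 mice were profiled as single cells in 5 groups of 2 libraries each, and all were sorted as CD11b high and CD45 intermediate cells. Adult microglia came straight from the brain of adult mice (ex vivo, naive), in vitro microglia came from mixed glial cultures of neonatal cortex kept for 3 weeks, and slice microglia came from organotypic brain slices of neonatal pups kept for 1 day, 1 week or 3 weeks. No transgene, deletion or inflammatory stimulus was named for any group. The slice medium was supplemented with human PDGF, which the study's methods do not name for the mixed glial medium, so that medium and kind of culture cannot be told apart between slices and in vitro. Slices could be pooled for a library, and the sources used here give neither the sex of the mice nor whether the 2 libraries of a group, described as independent samples, came from separate animals or cultures, so p-values measure only the spread between these libraries. Adult differs from all cultures in age at isolation as well as in culture, and these cannot be told apart.

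The libraries held from 61 cells (slice 1 week replicate 2) to 3799 cells (adult replicate 1), and from 385373 to 39689540 unique molecular identifiers (UMIs, each standing for 1 captured RNA molecule). Levels are the UMIs of a gene summed over the cells of a library, given as CPM (its share of the library's UMIs on a fixed scale) and scaled by TMM factors. Pairs of libraries shared from 0 to 23 cell barcodes. The microglia marker list (10 genes) was detected in full in all libraries, with sums of 51807 to 53094 CPM in adult, 9832 to 11236 CPM in vitro, 7966 to 9013 CPM in slice 1 day, 15866 to 18499 CPM in slice 1 week and 27185 to 31214 CPM in slice 3 weeks. Some libraries stood apart. The neutrophil list (10 genes) reached 7837 and 22920 CPM in slice 1 day and 40899.8 and 968 CPM in slice 1 week (replicates 1 and 2), and at most 8.39 CPM in the other groups. The monocyte list (8 genes) stood at 193 and 392.3 CPM in slice 1 day, 864 and 0 CPM in slice 1 week and at most 7.75 CPM elsewhere. Cells with over 2% of their UMIs in the neutrophil list (called neutrophil-rich here) numbered 68 of 518 and 111 of 1014 in slice 1 day and 24 of 148 and 1 of 61 in slice 1 week, and 0 elsewhere. UMIs of 3 or more neutrophil genes were found in 1011 of 1014 cells of slice 1 day replicate 2 and in 148 of 148 cells of slice 1 week replicate 1. Values without those cells are given where they changed a member's call or moved a fitted value that is printed by over 1 SE.

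Receptors of this family are of opposing kinds. Clec4e (Mincle), Clec4d (its partner MCL) and Clec4n bind microbial glycolipids or mannans and signal through the adaptor Fcer1g, and Clec5a signals through the adaptors Tyrobp and Hcst; these adaptors hand the signal to the kinase Syk and on to Card9, Bcl10 and Malt1. Clec4a2 (DCIR) and Clec12a (which binds uric acid crystals) carry inhibitory motifs that recruit the phosphatases Ptpn6 and Ptpn11. In brain they are known from microglia, border macrophages and infiltrating myeloid cells.

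All 8 genes lie on mouse chromosome 6 (GENCODE positions, GRCm38, the build that the submitters' notes name as mm10), and the 6 Clec4 genes sit within 368 kb. Clec4a1 occupies chr6:122921848-122934619 and Clec4a3 chr6:122952515-122969875, followed on the same plus strand by Clec4a2 at chr6:123106428-123143999, Clec4n at chr6:123229843-123247021 and Clec4d at chr6:123262111-123275265. Clec4e is read from the minus strand at chr6:123281789-123289870, next to Clec4d. Clec5a lies at chr6:40574894-40585821 (minus strand) and Clec12a at chr6:129342691-129365303 (plus strand). The 3' libraries count the ends of transcripts. In the last 500 bases of the longest coding transcript, no run of 50 bases was shared between any of the 8 genes and another annotated gene (0 of 451 runs each). Other transcript ends and inexact matches between these close relatives were not examined. The genome strand used in counting was not given in the sources used here.

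The 250 bases before the start of 4 genes are shown because these genes had unlike patterns: Clec4d and Clec4e are neighbours that were at 0 UMIs in adult, Clec4a2 was lowest in 3-week slices, and Clec5a had its lowest level in vitro. They are windows before the RefSeq start on GRCm38.p6, which can differ from the GENCODE bounds given above: the Clec4a2 window lies inside the GENCODE gene, before a later start, and the Clec5a window overlaps the first bases of the GENCODE gene. They are written 5' to 3' on the gene's strand, and capitals mark matches on either strand to GAGGAAG (PU.1), TGANTCA (AP-1), TTNNGNAA (C/EBP) or GGANTTTCC (NF-kB). The windows are chr6:123261857-123262106 (plus strand, Clec4d), chr6:123289872-123290121 (minus strand, Clec4e), chr6:123122440-123122689 (plus strand, Clec4a2) and chr6:40585806-40586055 (minus strand, Clec5a).
Clec4d: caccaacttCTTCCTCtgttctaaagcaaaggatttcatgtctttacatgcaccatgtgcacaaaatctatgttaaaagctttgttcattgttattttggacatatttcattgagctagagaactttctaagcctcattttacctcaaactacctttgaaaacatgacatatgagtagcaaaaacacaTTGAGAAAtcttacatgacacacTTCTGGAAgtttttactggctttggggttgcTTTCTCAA
Clec4e: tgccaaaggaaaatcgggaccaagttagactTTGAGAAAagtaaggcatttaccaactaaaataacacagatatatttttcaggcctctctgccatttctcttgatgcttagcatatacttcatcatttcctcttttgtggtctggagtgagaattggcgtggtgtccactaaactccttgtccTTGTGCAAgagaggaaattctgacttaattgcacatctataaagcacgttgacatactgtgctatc
Clec4a2: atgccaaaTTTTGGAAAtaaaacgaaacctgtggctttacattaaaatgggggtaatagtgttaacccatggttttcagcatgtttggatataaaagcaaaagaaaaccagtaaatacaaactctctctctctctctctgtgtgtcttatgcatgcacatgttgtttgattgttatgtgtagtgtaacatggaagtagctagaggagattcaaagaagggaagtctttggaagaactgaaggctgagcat
Clec5a: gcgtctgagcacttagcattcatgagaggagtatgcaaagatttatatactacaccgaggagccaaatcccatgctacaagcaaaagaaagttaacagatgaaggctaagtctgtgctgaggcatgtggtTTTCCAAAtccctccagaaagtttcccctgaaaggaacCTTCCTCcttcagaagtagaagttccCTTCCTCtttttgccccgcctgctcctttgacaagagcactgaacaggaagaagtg
The Clec4d window held 1 PU.1 match and 3 C/EBP matches, and the Clec4e window held 2 C/EBP matches. In the Clec4a2 window the C/EBP letters matched at 2 overlapping places, and the Clec5a window held 2 PU.1 matches and 1 C/EBP match. Of the other windows, those of Clec4a1 and Clec12a held 1 PU.1 match each, that of Clec12a also 1 AP-1 match and 2 C/EBP matches, and both windows of Clec4a3 held none. Among all 32851 windows of this length, 10.6% held the PU.1 letters, 6.75% the AP-1 letters, 36.9% the C/EBP letters and 1.07% the NF-kB letters. Letter matches of such short motifs are descriptions of the sequence only.

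Against adult microglia, the activating receptors of the Clec4 cluster had at most 1 UMI in adult libraries and were detected in all cultures. Clec4d had 0 UMIs in both adult libraries. Its level was 170.2 and 179.6 CPM in vitro, 72.9 and 52.5 CPM in slice 1 day, 38.5 and 7.68 CPM in slice 1 week and 5.05 and 9.64 CPM in slice 3 weeks. Every culture library was thus above both adult libraries, and the group means were highest in vitro and declined over the slice time points, although the slice 1 week libraries overlapped those of slice 3 weeks. With 3 counts over both adult libraries (0.140 CPM) as the limit that a count of 0 allows, Clec4d was at least 1250-fold higher in vitro, at least 448-fold in slice 1 day, at least 165-fold in slice 1 week and at least 52.5-fold in slice 3 weeks. In slice 1 week replicate 1, 21 of its 39 UMIs were in neutrophil-rich cells, and without that library the limit was at least 54.8-fold. These limits rest on both adult libraries: from replicate 2 or replicate 1 alone the adult limit is 0.386 or 0.220 CPM, and for Clec4d in vitro the fold at least 453 or 797.

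Clec4n had 1 UMI in the 2 adult libraries together. It stood at 233 and 168 CPM in vitro, 94.6 and 77.4 CPM in slice 1 day, 109 and 53.7 CPM in slice 1 week and 8.67 and 27.3 CPM in slice 3 weeks. In vitro was highest and slice 3 weeks lowest among the cultures, while slice 1 day lay within the spread of slice 1 week. The ratio to adult was 4248 in vitro, with an exact 95% counting interval from 762 to 167816, and 480 (85.8 to 18981) in slice 3 weeks, or 186 there without replicate 2. The 1 adult UMI was in replicate 1, and against replicate 2 alone, at 0 UMIs, Clec4n was at least 519-fold higher in vitro and at least 46.6-fold in slice 3 weeks. These intervals cover counting error only.

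Clec4e, the third activating receptor of the cluster, was low throughout and had its highest group means in the early slices, counted over all cells. It had 0 UMIs in adult, 7.29 and 5.95 CPM in vitro, 15.7 and 23.5 CPM in slice 1 day, 40.5 and 7.68 CPM in slice 1 week and 1.81 and 3.87 CPM in slice 3 weeks. In slice 1 day, 23 of 60 and 52 of 228 UMIs were in neutrophil-rich cells, and 15 and 31 in monocyte-rich cells (defined below). The remaining cells there had 6.63 and 17.1 CPM, against 6.68 and 5.34 CPM in vitro (CPM without TMM scaling). Without both kinds of cell, replicate 1 thus lay within the in vitro range and replicate 2 above it. The 40.5 CPM of slice 1 week replicate 1 came from 41 UMIs, of which 15 were in the neutrophil-rich cells and 26 in only 3 of the other 124 cells. Against the adult limit it was at least 47.3-fold higher in vitro and at least 20.3-fold in slice 3 weeks (12.9-fold without replicate 2).

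Clec12a, an inhibitory receptor, was also near 0 in adult. It had 0.732 and 0.129 CPM in adult (10 UMIs and 1 UMI), 152 and 171 CPM in vitro, 13.6 and 23.7 CPM in slice 1 day, 86.0 and 40.9 CPM in slice 1 week and 11.5 and 9.69 CPM in slice 3 weeks. All 8 culture libraries were above both adult libraries, and in vitro was above all slices. The log2 fold change against adult was 8.30 ± 0.46 (SE) in vitro (8.77 ± 0.30 without the neutrophil-rich cells and those with over 0.1% of UMIs in the monocyte list, called monocyte-rich here), 5.23 ± 0.49 in slice 1 day, 7.06 ± 0.51 in slice 1 week (6.45 ± 0.38 without neutrophil-rich cells) and 4.35 ± 0.50 in slice 3 weeks. Slice 1 day and slice 3 weeks were neighbours in the order of levels (18.7 ± 7.12 and 10.6 ± 1.29 CPM, SD, n = 2 each), whose libraries did not overlap.

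The inhibitory Clec4a2 was not lower in all cultures, against what was proposed for it. It stood at 127 and 109.9 CPM in adult and at 187 and 132 CPM in vitro, where both libraries were above both adult ones. The slices had 90.9 and 62.2 CPM at 1 day, 103 and 28.1 CPM at 1 week and 7.89 and 4.56 CPM at 3 weeks. The log2 fold change against adult was 0.43 ± 0.36 in vitro, -0.64 ± 0.37 in slice 1 day, -0.70 ± 0.42 in slice 1 week and -4.32 ± 0.44 in slice 3 weeks. The gene was proposed on these contrasts, so the values are a description with no test. At 1 week, 49 of the 104 UMIs of replicate 1 were in neutrophil-rich cells, and without such cells the log2 fold change against adult was -1.35 ± 0.39.

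Clec4a1 and Clec4a3, close relatives of Clec4a2 in the same cluster, differed from it and from each other. Clec4a1 stood at 5.57 and 4.64 CPM in adult, 64.0 and 48.3 CPM in vitro, 47.2 and 27.6 CPM in slice 1 day, 23.7 and 12.8 CPM in slice 1 week and 2.33 and 0.978 CPM in slice 3 weeks. It was therefore above adult in 3 culture groups and below adult in slice 3 weeks, with log2 fold changes of 3.44 ± 0.34, 2.83 ± 0.35, 1.96 ± 0.51 and -1.85 ± 0.44 in that order of groups. Without the neutrophil-rich and monocyte-rich cells, slice 1 day stood at 2.41 ± 0.32 for Clec4a1. Clec4a3 stood at 144 and 137 CPM in adult, 86.0 and 72.4 CPM in vitro, 86.2 and 38.1 CPM in slice 1 day, 32.6 and 35.8 CPM in slice 1 week and 16.2 and 7.92 CPM in slice 3 weeks. It was highest in adult, every culture library was below both adult ones, and in vitro and slice 1 day overlapped. Its log2 fold change was -0.83 ± 0.34 in vitro and -1.21 ± 0.36, -2.06 ± 0.46 and -3.60 ± 0.39 in the slices of 1 day, 1 week and 3 weeks. Without both kinds of cell the value of slice 1 day was -1.72 ± 0.35.

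Clec5a, the receptor that works with Tyrobp, was the steadiest in slices and had its own lowest level in vitro. It stood at 127 and 123 CPM in adult, 31.1 and 30.1 CPM in vitro, 95.1 and 99.4 CPM in slice 1 day, 80.04 and 79.3 CPM in slice 1 week and 94.4 and 55.7 CPM in slice 3 weeks. No library of another group came down to the in vitro level, slice 1 week lay within the range of the wide pair at 3 weeks, and slice 1 day was just above both. The log2 fold change against adult was -2.03 ± 0.21 in vitro, -0.36 ± 0.20 in slice 1 day, -0.65 ± 0.24 in slice 1 week (-0.94 ± 0.26 without neutrophil-rich cells) and -0.74 ± 0.20 in slice 3 weeks. On UMIs per cell, a scale on which the median of all genes stood 2.04 higher in vitro, 1.49 in slice 1 day, 1.10 in slice 1 week and 1.05 in slice 3 weeks than in adult, the sign of Clec5a turned in all cultures (0.14, 1.18, 0.54 and 0.38 in that order). On that scale the sign also turned for Clec4a3 in vitro (1.33) and in slice 1 day (0.28), and for Clec4a2 in slice 1 day (0.85) and slice 1 week (0.43).

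**Figure D1:**
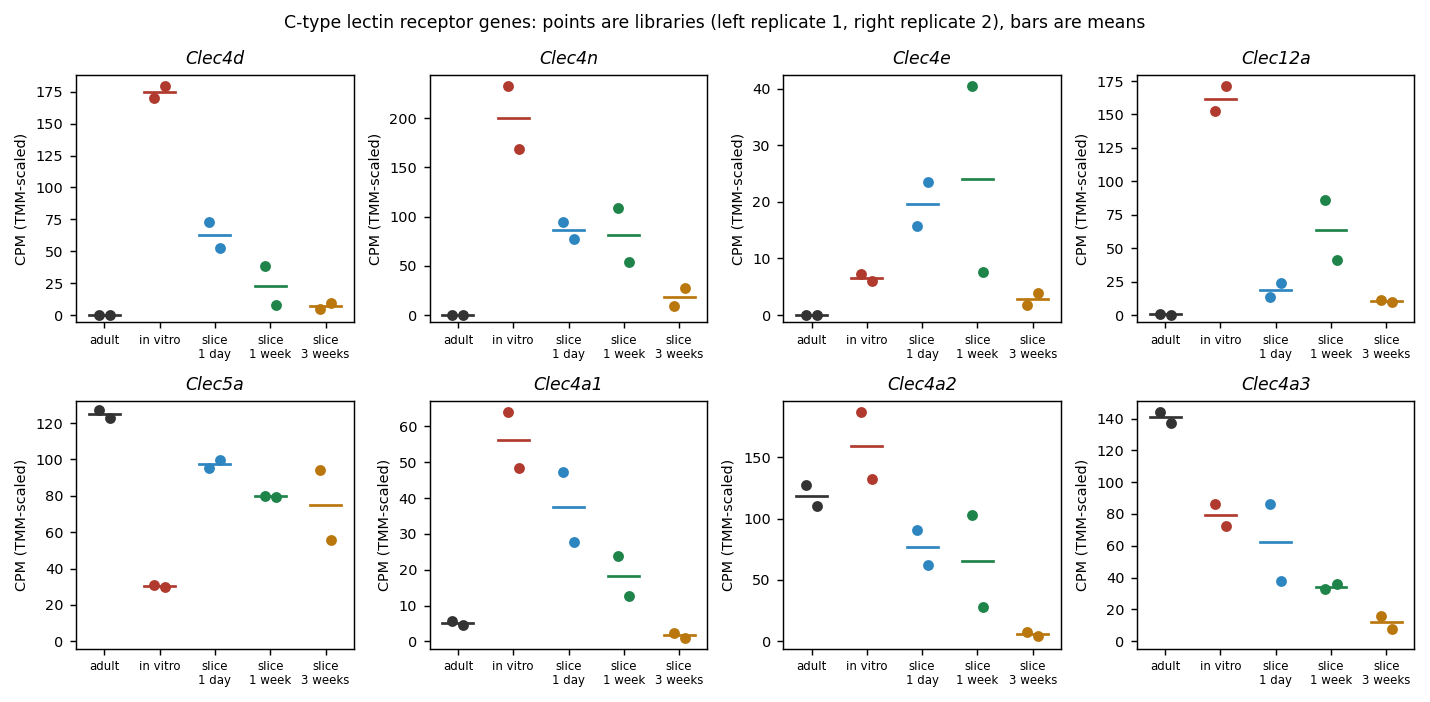
TMM-scaled CPM (y axis, linear, a separate range in each panel) of the 8 genes in the 10 libraries, by group (x axis). Points are libraries and bars the mean of 2; Clec4d, Clec4n, Clec4e and Clec12a are at or near 0 in adult, Clec4a2 at 3 weeks is at 7.89 and 4.56 CPM, and Clec5a has its lowest level in vitro.

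Because the genes were chosen on these contrasts, the counts against adult are a description and nothing was read from them. In vitro, 5 of 8 were past the thresholds upward (all genes: 22.4%) and 1 of 8 downward (28.5%). In slice 1 day it was 5 upward (24.9%) and 1 downward (25.4%), in slice 1 week 5 upward (15.0%) and 1 downward (13.6%), and in slice 3 weeks 4 upward (18.0%) and 4 downward (17.5%). The 4 comparisons share the adult libraries. A study label of their own (TST11200) was given to the first replicates of adult and of slice 3 weeks, and another to the other 8 libraries. Within the first label, slice 3 weeks minus adult was -3.85 for Clec4a2 and 3.17 for Clec4n on the log2(CPM + 1) scale (1 library against 1), and within the other label -4.32 and 4.82.

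The summed level of the 8 genes was 405 and 375 CPM in adult, 930.4 and 808 CPM in vitro, 516 and 405 CPM in slice 1 day, 513 and 266 CPM in slice 1 week and 148 and 119.7 CPM in slice 3 weeks. In vitro libraries had the highest sums and slice 3 weeks the lowest. The make-up differed as well: in adult the sum was made almost wholly of Clec4a2, Clec4a3 and Clec5a, whereas in vitro Clec4d, Clec4n and Clec12a joined Clec4a2.

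Comparisons between cultures were tested (edgeR quasi-likelihood test, Benjamini-Hochberg over all 12155 genes, called at adjusted p < 0.05 and fold > 1.5). The genes were proposed for differences between cultures and adult, but with values of these same culture libraries known. The adjusted p-values do not allow for that choice. From 1 day to 3 weeks in slices, 6 of 8 genes fell and 0 rose, against 12.8% and 13.9% of all genes. The median log2 fold change of the 8 was -2.55, against 0.05 for all genes tested. The steepest fall was that of Clec4a1 (-4.68 ± 0.40, adjusted p = 7.9e-05), followed by Clec4a2 (-3.67 ± 0.43, adjusted p = 0.00034) and Clec4d (-3.01 ± 0.37, adjusted p = 0.00058). Clec4e (-2.70 ± 0.47, adjusted p = 0.0030), Clec4a3 (-2.40 ± 0.39, adjusted p = 0.0016) and Clec4n (-2.20 ± 0.43, adjusted p = 0.0042) fell as well. Clec5a (-0.38 ± 0.21, adjusted p = 0.18) and Clec12a (-0.88 ± 0.32, adjusted p = 0.062) did not pass. With the study label (described above) as a covariate both were called, Clec5a at -0.62 (adjusted p = 0.032) and Clec12a at -1.07 (adjusted p = 0.043), and Clec5a also without slice 3 weeks replicate 1 (-0.81, adjusted p = 0.0020). Clec12a was called as well under library size alone, UMIs per cell, no filter on low genes, all barcodes and DESeq2 (-0.84 to -1.34, adjusted p from 0.00042 to 0.043) and without slice 1 day replicate 1 or either slice 1 week library (-0.88 to -1.18), whereas without neutrophil-rich cells it was at -0.49 (adjusted p = 0.12) and without monocyte-rich cells as well at -0.28 (adjusted p = 0.34). Activating receptors and the inhibitory Clec4a2 were thus both among those that fell.

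The 6 calls from 1 day to 3 weeks were also made without the neutrophil-rich cells, and without those plus the monocyte-rich cells (31 and 49 cells in slice 1 day). With both kinds of cell left out, the same 6 genes were called, at -4.23 (Clec4a1, adjusted p = 5.7e-05), -3.44 (Clec4a2), -2.57 (Clec4d), -2.03 (Clec4e), -1.87 (Clec4a3) and -1.68 (Clec4n, adjusted p = 0.013). Leaving out each library in turn gave 6 or 7 called genes. The summed level of the border-associated macrophage list (7 genes) also went down over this interval, from 331 and 286 CPM in slice 1 day to 121 and 69.0 CPM in slice 3 weeks, and its part in these calls was not tested. Within the study label that slice 1 day shares with slice 3 weeks replicate 2, the log2(CPM + 1) difference was -1.62 for Clec4n, -3.80 for Clec4a2 and -4.28 for Clec4a1.

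Over the first week of slice culture, 1 of the 8 genes passed the thresholds in the main fit. Clec12a rose by a log2 fold change of 1.83 ± 0.36 (adjusted p = 0.012), from 13.6 and 23.7 CPM to 86.0 and 40.9 CPM, and 0 of 8 genes fell; of all genes, 4.92% rose and 5.26% fell. The median of the 8 was -0.17, against -0.01 for all genes. In slice 1 week replicate 1, neutrophil-rich cells held 43 of 87 Clec12a UMIs, and without such cells the log2 fold change was 1.61 (adjusted p = 0.0050). Without those cells Clec4d fell as well (-1.61, adjusted p = 0.027), where it was at -1.15 ± 0.45 (adjusted p = 0.14) with all cells. Clec4d was also called on UMIs per cell (-1.54, adjusted p = 0.0095), where the median of all genes was -0.36. Leaving out each library in turn moved Clec4d between -3.04 and -0.77. With no filter on low genes Clec4d, Clec4a1 and Clec4a3 fell (-1.25, -0.96 and -0.95, adjusted p from 3.2e-05 to 0.025). Without slice 1 week replicate 1 the value of Clec12a was 1.06 (adjusted p = 0.39), without slice 1 day replicate 1 it was 1.52 (adjusted p = 0.052), and in cells thinned to 1800 UMIs it was 1.66 (adjusted p = 0.13).

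From 1 week to 3 weeks 5 of 8 genes were lower, against 3.50% of all genes, and 0 were higher, against 2.24%. They were Clec4a1 (-3.81 ± 0.58, adjusted p = 0.0054), Clec4a2 (-3.62 ± 0.47, adjusted p = 0.0031), Clec4e (-3.23 ± 0.58, adjusted p = 0.014), Clec12a (-2.71 ± 0.37, adjusted p = 0.0034) and Clec4n (-2.21 ± 0.48, adjusted p = 0.027). Clec4d (-1.87 ± 0.50, adjusted p = 0.063) and Clec4a3 (-1.54 ± 0.51, adjusted p = 0.11) did not pass, and Clec5a was at -0.09 ± 0.24. Clec4d was called with UMIs per cell, no filter, thinned cells and DESeq2 (-1.72 to -2.69, adjusted p from 7.8e-08 to 0.041), and Clec4a3 with UMIs per cell, no filter and DESeq2 (-1.41 to -1.59, adjusted p from 6.4e-06 to 0.014). Without neutrophil-rich cells Clec4d was at -1.01 (adjusted p = 0.26), and in thinned cells the call of Clec4a1 was lost (-3.42, adjusted p = 0.099). The median of the 8 was -2.46, against 0.06 for all genes. These calls rest on slice 1 week replicate 1, since without it 0 genes were called from the 61 cells of the remaining library. The values were then -3.14 ± 1.18 for Clec4a1, -2.22 ± 0.69 for Clec4a2, -1.95 ± 0.57 for Clec12a, -1.51 ± 0.76 for Clec4n, -1.31 ± 1.09 for Clec4e and 0.02 ± 0.99 for Clec4d (adjusted p from 0.23 to 1). Clec4d was called without slice 1 week replicate 2 (-2.24, adjusted p = 0.036) or slice 3 weeks replicate 2 (-2.42, adjusted p = 0.046), and Clec4a3 without slice 3 weeks replicate 1 (-2.08, adjusted p = 0.031) or slice 1 day replicate 1 (-1.53, adjusted p = 0.0498). Without the neutrophil-rich cells of both libraries the same 5 were called, at -3.81 (Clec4a1), -2.97 (Clec4a2), -2.76 (Clec4e), -2.25 (Clec4n) and -2.10 (Clec12a), and Clec5a was at 0.19. The macrophage list stood at 241 and 213 CPM in slice 1 week, above the 121 and 69.0 CPM of slice 3 weeks, and its part in these calls was not tested.

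After the same 3 weeks, microglia of mixed glial cultures had far more RNA of most of these genes than slice microglia. In vitro against slice 3 weeks, 6 of 8 genes were higher (13.3% of all genes) and 1 lower (20% of all genes), with a median log2 fold change of 3.69 against -0.10. Clec4a1 was 39.1-fold higher (5.29 ± 0.40, adjusted p = 7.0e-06), Clec4a2 26.7-fold (4.74 ± 0.44, adjusted p = 2.6e-05), Clec4d 22.7-fold (4.50 ± 0.38, adjusted p = 2.7e-05) and Clec12a 15.4-fold (3.95 ± 0.32, adjusted p = 1.3e-05). Clec4n was 10.7-fold higher (3.42 ± 0.44, adjusted p = 0.00024) and Clec4a3 6.83-fold (2.77 ± 0.38, adjusted p = 0.00035). Clec5a went the other way (-1.29 ± 0.21, adjusted p = 0.00091), except on UMIs per cell, where it was at -0.25 with all genes at 0.97 (adjusted p = 0.55). Clec4e was at 1.11 ± 0.46 (adjusted p = 0.081), and was called with UMIs per cell (2.26), no filter (1.21) and thinned cells (1.64), and without either slice 1 week library (1.19 each) or slice 3 weeks replicate 2 (1.93). Leaving out each library gave 7 or 8 called genes. Within the study label of 3 of these libraries the log2(CPM + 1) differences were 4.05 for Clec4d, 4.85 for Clec4a2 and -0.84 for Clec5a.

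The border-associated macrophage list moved with that difference, too. Its summed level was 2321 and 2228 CPM in vitro, with 0 of 7 genes at 0, and 121 and 69.0 CPM in slice 3 weeks, where Lyve1 was at 0 in both libraries and Cd163 in replicate 1. In adult it was 12.2 and 7.06 CPM. The neutrophil list was at 2.62 and 3.58 CPM in vitro, with Retnlg, Ly6g and Stfa2l1 at 0 in both libraries. The part of the macrophage genes in the result was not tested.

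**Figure D2:**
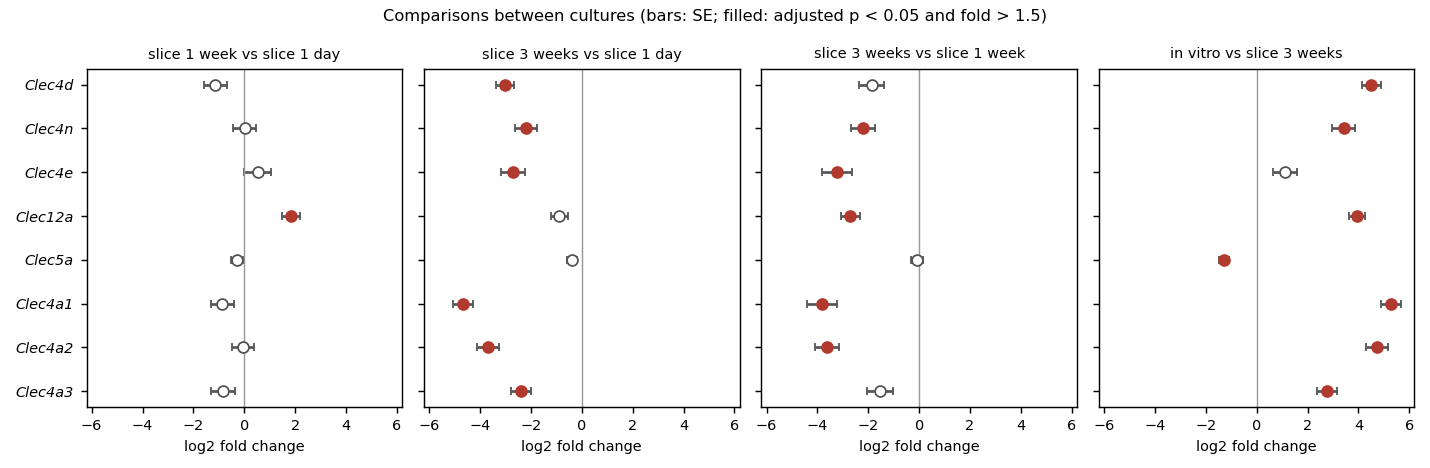
Log2 fold change (x axis) of each gene (y axis) in the 4 comparisons between cultures, with SE bars from the edgeR fit. Filled points passed adjusted p < 0.05 and fold > 1.5: 1, 6, 5 and 7 genes from left to right.

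The cells showed how each level was made up. In vitro, most cells held a UMI of Clec4d and of Clec4n: 76.0% and 78.5% of cells held a Clec4d UMI and 72.9% and 62.8% a Clec4n UMI. The other activating receptors were found in fewer cells, Clec4e in 108 of 2417 and 134 of 2682 cells and Clec5a in 31.3% and 30.4%. At an equal depth of 1800 UMIs per cell these shares were 23.9% and 24.4% for Clec4d and 29.3% and 20.9% for Clec4n. In adult cells at that depth both were 0 of 3386 and 0 of 1909 cells, which allows shares of cells with a captured UMI up to 0.0886% and 0.157% (3 counts) and sets no limit on the cells that express the genes. Adult cells come from other libraries and do not measure the free RNA of the in vitro droplets; no background share could be measured within the in vitro libraries, since cells of other brain lineages were too few, so these are shares of cells with a UMI and not of cells that express the gene. The depth of adult cells before thinning was lower (medians of 3257 and 1858 UMIs against 12858 and 13966 in vitro). Clec4a2 was found in overlapping shares: 22.1% and 20.3% of thinned adult cells and 26.4% and 19.2% of thinned in vitro cells held a UMI of it.

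In slices, a small set of cells held most Clec4n UMIs. In replicate 2, 74 of 3740 cells (1.98%) had 3 or more Clec4n UMIs and held 473 of the library's 587 (80.6%), and in replicate 1, 7 of 1153 cells (0.607%) held 35 of 67 (52.2%). In slice 1 day, 7.53% and 6.80% of cells had 3 or more and held 74.2% and 71.8%, and in slice 1 week 10.8% and 3.28% of cells held 79.1% and 76.2%. Of these slice 1 day cells, 11 of 39 and 19 of 69 were neutrophil-rich. In vitro, 41.2% and 30.6% of cells had 3 or more and held 85.0% and 80.4%. At 1800 UMIs per cell, a cell with any Clec4n UMI had 1.37 and 1.81 of them on average in slice 3 weeks (19 and 96 cells), below and above the 1.498 and 1.46 in vitro. Clec5a, which stood above Clec4n in slice 3 weeks replicate 2 (55.7 against 27.3 CPM), had 1.09 per positive cell there, over 326 of 3689 thinned cells.

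**Figure D3:**
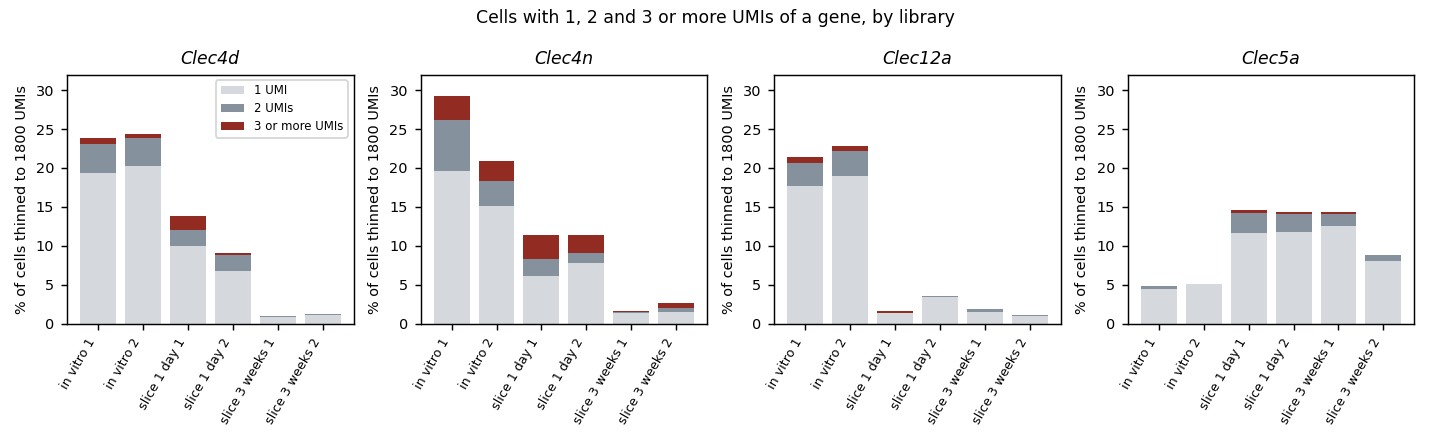
Share of cells (y axis, % of cells thinned to 1800 UMIs) with 1, 2 and 3 or more UMIs of 4 genes in 6 libraries (x axis). Clec4n at 3 weeks has few positive cells, and in replicate 2, 22 of the 96 have 3 or more UMIs, whereas Clec5a is mostly at 1 UMI per cell.

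At 3 weeks Clec4n, Clec4d, Clec4e and Clec12a met in the same cells of replicate 2 more often than the product of their shares gives. In thinned cells of replicate 2, 20 cells held both Clec4n and Clec12a, where the product of their shares gives 1.12. Clec4n and Clec4d met in 17 cells against 1.22, Clec4n and Clec4e in 8 against 0.390, and Clec4d and Clec12a in 9 against 0.548. The inhibitory Clec4a2 met Clec4n in 5 cells against 0.729. The activating Clec5a met Clec4n in 7 cells against 8.48 and Clec4d in 2 against 4.15. In replicate 1, with fewer cells, Clec4n met Clec12a in 5 cells against 0.353, Clec4a2 in 3 against 0.202, Clec4d in 2 against 0.185 and Clec4e in 0 against 0.0504, while Clec5a met Clec4n in 4 against 2.72 and Clec4d in 1 against 1.58. In vitro, Clec4n with Clec4d was found in 174 cells against 169 in replicate 1 and in 126 against 137 in replicate 2, and Clec4n with Clec12a in 131 against 151 and 100 against 128. Other pairs lay above the product there, with Clec4n and Clec4a2 in 247 cells against 187 and 148 against 107, and Clec4a1 and Clec4a2 in 116 against 72.6 and 67 against 42.9. In slice 1 day, Clec4d and Clec4n met in 20 cells against 7.74 and in 31 against 10.4. Neutrophil-rich cells are included there, with Clec4d at 530.2 and 149 CPM and Clec4n at 454 and 227 CPM, and their part was not tested. All counts of shared cells given here are descriptions of single libraries, without a test.

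The cells with 3 or more Clec4n UMIs in 3-week slices differed from the rest of their library in further genes, named after their values were seen. Ms4a7, a gene of macrophages at the brain's borders, stood at 1470 CPM in replicate 2 and 2076 CPM in replicate 1, against 49.6 and 77.7 CPM in the other cells (CPM without TMM scaling). Pla2g7 stood at 1187 and 1072 CPM against 55.1 and 26.5 CPM, Cd38 at 330.1 and 205 CPM against 12.3 and 14.1 CPM, and Apoe at 107441 and 101406 CPM against 17678 and 26308 CPM. Of the microglial genes, P2ry12 was at 226 and 137 CPM against 799 and 971 CPM, and Sparc at 349.8 and 114 CPM against 2236 and 2211 CPM. Sall1, the transcription factor that marks microglia, was at 11.8 CPM (6 UMIs) and at 0 UMIs, against 58.6 and 48.9 CPM. Both libraries thus gave the same order for each of these genes. Replicate 1 has only 7 such cells, so its lower values rest on few UMIs. The 0 UMIs of Sall1 there are too few to set an order. The microglia list, too, was lower, at 19296 and 17297 CPM in these cells and 27369 and 31292 CPM in the rest. The macrophage list was at 356 and 685 CPM in these cells and at 62.3 and 117 CPM in the rest, the neutrophil list at 2 UMIs and 0 UMIs, and the monocyte list at 0 UMIs in both. Median depth was alike (6007 and 6131 UMIs per cell, against 5261 and 6112). Cells were picked by a member of the family, so these values carry no test.

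**Figure D4:**
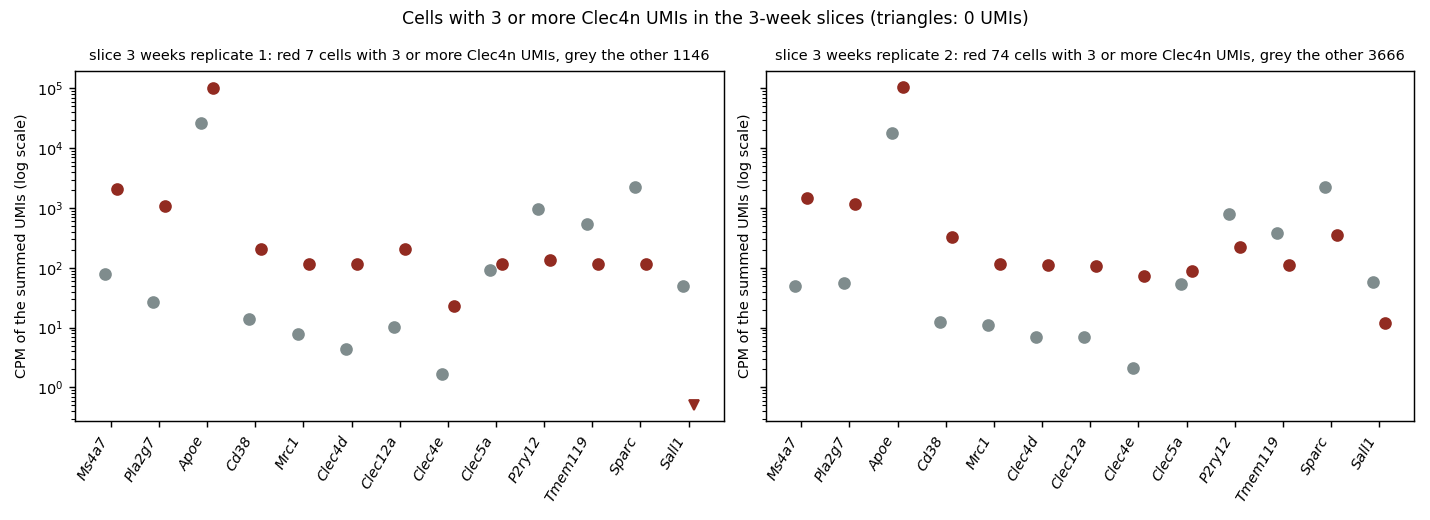
CPM of the summed UMIs (y axis, log scale) of 13 genes in the cells with 3 or more Clec4n UMIs (red, 7 and 74 cells) and in the other cells (grey) of the slice 3 weeks libraries. Ms4a7, Pla2g7, Apoe, Cd38 and Mrc1 are higher in the red cells, P2ry12, Tmem119, Sparc and Sall1 lower, and a triangle marks 0 UMIs. Of the other lectin receptors, Clec4d, Clec12a, Clec4e and Clec5a are shown as well.

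In the early slices, the receptors were not all distributed alike over kinds of cell. Neutrophil-rich cells had the highest Clec4d level in slice 1 day replicate 1, with 530.2 CPM against 51.8 CPM in the cells that were rich in neither list, and in replicate 2 it was 149 against 41.8 CPM. They also had more Clec4n (454 and 227 CPM, against 69.0 and 53.0 CPM), Clec4a2 (117 and 171 CPM, against 84.9 and 48.1 CPM), Clec4e (134 and 69.6 CPM, against 6.63 and 17.1 CPM) and Clec5a (373 and 221 CPM, against 89.1 and 89.9 CPM). Clec4a1 and Clec4a3 were low in them, with 1 and 2 UMIs of Clec4a1 and 4 and 7 UMIs of Clec4a3. The cells with over 0.1% of UMIs in the monocyte list had the highest levels of Clec4a1 (390 and 266 CPM, against 34.0 and 21.9 CPM) and Clec4a3 (715 and 446 CPM, against 61.4 and 27.0 CPM), and of Clec4a2 (266 and 226 CPM). Clec4n in them was at 319 and 436 CPM, Clec4d at 88.6 and 146 CPM and Clec4e at 88.6 and 103 CPM. Those 31 and 49 cells held 36.8% and 36.2% of the Clec4a3 UMIs of their libraries.

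Both lists of cells are ranges of a score rather than types, and few cells lay near the limit of the first: 68, 115 and 25 cells had over 1% of UMIs in the neutrophil list and 56, 105 and 23 over 5%, where 68, 111 and 24 had over 2% (slice 1 day replicates 1 and 2 and slice 1 week replicate 1). Clec12a was not alike in the libraries, with 0 UMIs in the 68 neutrophil-rich cells of slice 1 day replicate 1, 93 UMIs in the 111 of replicate 2 and 43 UMIs in the 24 of slice 1 week replicate 1. UMIs of neutrophil genes were found in nearly all cells of the latter 2 libraries, and their part in the values of the remaining cells was not tested.

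**Figure D5:**
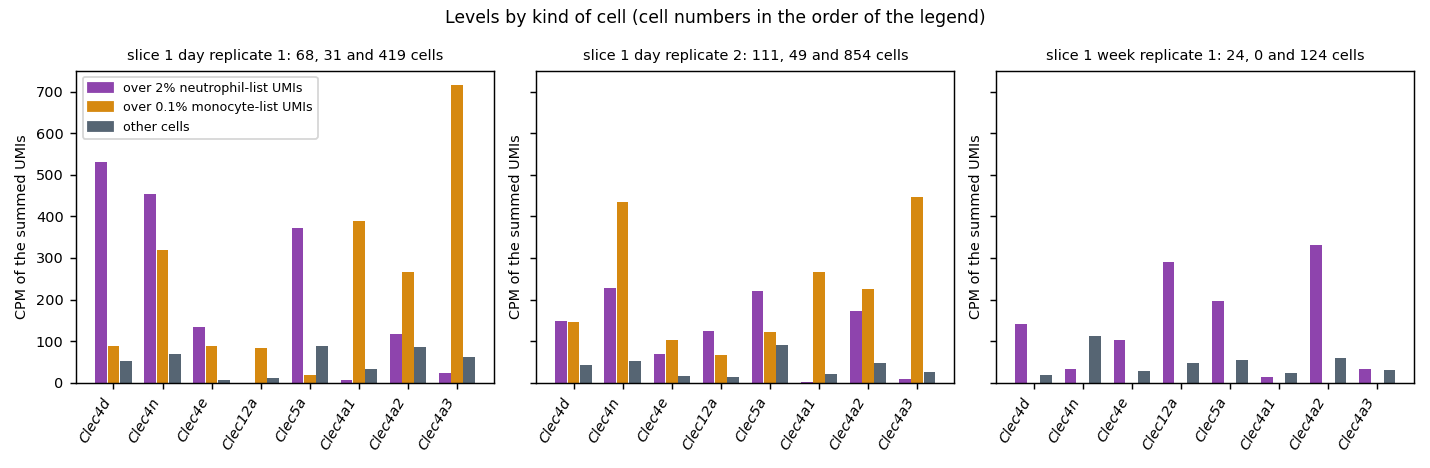
CPM of the summed UMIs (y axis, linear, no TMM scaling) of the 8 genes in cells with over 2% of UMIs in the neutrophil list, in those with over 0.1% in the monocyte list and in the other cells, in the 3 libraries with at least 24 cells of the first kind. Clec4a1 and Clec4a3 are highest in the second kind in slice 1 day, and Clec4d in the first kind in slice 1 day replicate 1 (530.2 CPM).

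Of the adaptors that carry these receptors to the surface, Fcer1g and Tyrobp were abundant RNAs in all groups and Hcst was far lower. Fcer1g stood at 3264 and 2825 CPM in adult, 4937 and 4740 CPM in vitro and 3816 and 3477 CPM in slice 3 weeks, and it rose in vitro against adult (0.67 ± 0.14, adjusted p = 0.0024) but did not pass in slice 3 weeks (0.26 ± 0.14, adjusted p = 0.17). Tyrobp had 3330 and 2937 CPM in adult and 5670 and 6365 CPM in slice 3 weeks, where it rose (0.94 ± 0.14, adjusted p = 0.00059), and was at 0.24 ± 0.14 (adjusted p = 0.17) in vitro. Hcst, at 45.9 and 44.8 CPM in adult, rose in vitro (0.61 ± 0.22, adjusted p = 0.036) and in slice 3 weeks (1.26 ± 0.22, adjusted p = 0.0014). In vitro against slice 3 weeks, Tyrobp (-0.70 ± 0.14, adjusted p = 0.0037) and Hcst (-0.65 ± 0.22, adjusted p = 0.037) were lower, and Fcer1g was at 0.41 ± 0.14, with an adjusted p of 0.044 and a fold under 1.5. Clec5a and both of its adaptors were thus lower in vitro than in slice 3 weeks as shares of the library's UMIs. On UMIs per cell, with the median of all genes at 0.97, Clec5a was at -0.25 (adjusted p = 0.55). On that scale 24 genes of the signalling list described next were higher and only 1 lower.

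Of the 33 adaptor and signalling genes, 4 rose and 15 fell in vitro against adult (all genes: 22.4% and 28.5%), 2 rose and 11 fell in slice 1 day (24.9% and 25.4%), 3 rose and 7 fell in slice 1 week (15.0% and 13.6%), and 4 rose and 16 fell in slice 3 weeks (18.0% and 17.5%). Without in vitro replicate 2, 12 in place of 19 were called in vitro, and without slice 1 week replicate 1, 2 in place of 10 in slice 1 week. Without the neutrophil-rich and monocyte-rich cells, 2 rose and 14 fell in slice 1 day. The medians with all cells were -0.52, -0.45, -0.45 and -0.52 in that order of groups, against -0.11, -0.06, -0.08 and -0.03 for all genes. On UMIs per cell, a scale that moved most genes upward, 29 were higher and 1 lower in vitro (all genes: 80.4% and 4.69%), 23 and 0 in slice 1 day (67.9% and 3.48%), 10 and 0 in slice 1 week (44.0% and 1.35%) and 11 and 2 in slice 3 weeks (55.9% and 2.76%). By class, 0 of 11 kinases rose and 7 fell in vitro, and of the 13 effectors 1 rose and 6 fell. In slice 3 weeks 1 kinase rose and 6 fell, and 1 effector rose and 7 fell. In slice 1 day 1 kinase rose and 5 fell, and 1 effector rose and 5 fell. In slice 1 week 1 kinase rose and 2 fell, and 1 effector rose and 4 fell. Of the 6 inhibitory genes, 1 rose and 2 fell in vitro, 1 fell in slice 1 day, 1 fell in slice 1 week and 3 fell in slice 3 weeks.

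Syk, the kinase that the adaptors recruit, stood at 40.0 and 33.6 CPM in adult, 49.6 and 46.6 CPM in vitro and 16.3 and 21.8 CPM in slice 3 weeks. It fell in slice 1 day (-0.82 ± 0.21, adjusted p = 0.0077) and slice 3 weeks (-0.94 ± 0.20, adjusted p = 0.0046) against adult, and was higher in vitro than in slice 3 weeks (1.32 ± 0.20, adjusted p = 0.00065). Card9, which links Syk to NF-kB, fell in vitro (-1.20 ± 0.22, adjusted p = 0.00094) and in slice 3 weeks (-1.19 ± 0.23, adjusted p = 0.0023), and did not differ by a call between them (-0.02 ± 0.23). Its levels were 19.8 and 27.3 CPM in adult, 11.6 and 8.84 CPM in vitro and 11.6 and 9.22 CPM in slice 3 weeks.

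Among the genes with the largest changes of the list was Vav3, a guanine nucleotide exchange factor downstream of Syk, with 0 UMIs in adult. It reached 26.8 and 26.9 CPM in vitro (at least 192-fold above the adult limit), 10.5 and 9.58 CPM in slice 1 day (at least 71.7-fold) and 1.16 and 2.28 CPM in slice 3 weeks (at least 12.3-fold). Fgr, a Src-family kinase, stood at 4.10 and 2.70 CPM in adult, 0.0642 and 0.0561 CPM in vitro (4 UMIs in all), 35.9 and 28.7 CPM in slice 1 day and 8.67 and 8.94 CPM in slice 3 weeks. It fell in vitro (-5.66 ± 0.45, adjusted p = 3.1e-06) and rose in slice 1 day (3.20 ± 0.28, adjusted p = 9.1e-06; 2.05 ± 0.28 without neutrophil-rich and monocyte-rich cells) and slice 3 weeks (1.33 ± 0.27, adjusted p = 0.0033). Ptpn11, a phosphatase that inhibitory receptors recruit, rose in vitro (0.65 ± 0.22, adjusted p = 0.025).

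On the lower side, Src (-2.62 ± 0.50, adjusted p = 0.0012) and Map3k14 (-1.64 ± 0.20, adjusted p = 5.3e-05) fell in vitro. In slice 1 day the largest falls were those of Nfatc2 (-2.28 ± 0.22, adjusted p = 1.7e-05), Nfkb1 (-1.79 ± 0.15, adjusted p = 8.1e-06) and Inpp5d (-1.68 ± 0.15, adjusted p = 1.1e-05), the last an inositol phosphatase that restrains such signals. In slice 3 weeks they were Src (-2.34 ± 0.53, adjusted p = 0.0056), Dok3 (-2.11 ± 0.39, adjusted p = 0.0017) and Nfatc2 (-1.48 ± 0.19, adjusted p = 0.00022). Dok3, an adaptor that dampens such signals, had 62.8 and 69.4 CPM in adult and 24.3 and 7.83 CPM in slice 3 weeks.

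In vitro against slice 3 weeks the list was even, with 6 of 33 higher (all genes: 13.3%) and 6 lower (20%) and a median of 0.02. Without in vitro replicate 2, 6 genes in place of 12 were called. Beside Syk and Vav3 (3.83 ± 0.28, adjusted p = 1.1e-05), Dok3 was higher (2.04 ± 0.38, adjusted p = 0.0022). Fgr (-6.99 ± 0.41, adjusted p = 1.3e-06), Map3k14 (-0.93 ± 0.20, adjusted p = 0.0042) and Lyn (-0.75 ± 0.17, adjusted p = 0.0057) were lower. On UMIs per cell 24 were higher and 1 lower (all genes: 52.7% and 5.55%).

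Between slice ages, 6 genes of the list rose and 0 fell from 1 day to 1 week (all genes: 4.92% and 5.26%), namely Hcst (1.17 ± 0.25, adjusted p = 0.017), Nfatc1 (1.22 ± 0.28, adjusted p = 0.022), Nfkb1, Plcg2, Inpp5d and Tyrobp (0.90, 0.75, 0.66 and 0.59). They were named after their values were seen. With neutrophil-rich and monocyte-rich cells left out the counts were 6 and 0, with DESeq2 6 and 1, with library size alone 3 and 2, and in thinned cells 0 and 0. On UMIs per cell they were 0 and 1 (all genes: 1.34% and 4.96%). Without either slice 1 day library or slice 1 week replicate 1 no gene was called, without slice 1 week replicate 2 only 1 rose, and without either in vitro library 3 rose. From 1 day to 3 weeks 4 rose and 6 fell (all genes: 13.9% and 12.8%), and on UMIs per cell 0 and 6 (all genes: 2.68% and 17.0%). From 1 week to 3 weeks Dok3 alone was called, as lower (all genes: 2.24% higher and 3.50% lower). It was not called without neutrophil-rich cells (-1.65, adjusted p = 0.089).

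Of 48 other C-type lectin genes listed, 21 passed the filter on low counts and 6 reached 20 CPM in the mean of a group. Mrc1, the mannose receptor, stood at 4.39 and 3.35 CPM in adult, 383 and 341 CPM in vitro, 25.9 and 19.2 CPM in slice 1 day, 61.3 and 33.3 CPM in slice 1 week and 8.67 and 14.1 CPM in slice 3 weeks, and so had the highest level in vitro, as Clec4n and Clec12a did. Cd93, with 0 UMIs in adult, reached 112 and 115 CPM in vitro and at most 10.2 CPM in any slice library. Colec12, a scavenger receptor of the family, had 2 UMIs in adult, 155 and 153 CPM in vitro, and unlike the Clec4 genes rose in slices from 1 day (26.5 and 23.8 CPM) to 3 weeks (60.2 and 77.2 CPM; 1.46 ± 0.18, adjusted p = 0.00047).

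Cd72, an inhibitory receptor, was highest in slices, with 325 and 330.4 CPM at 1 day and 295 and 277 CPM at 3 weeks, against 142 and 139.7 CPM in vitro and 13.8 and 10.6 CPM in adult. It did not pass between 1 day and 3 weeks (-0.20 ± 0.16, adjusted p = 0.38). Cd302 stood at 220.1 and 237 CPM in adult and 172 and 132 CPM in vitro (-0.59 ± 0.22, adjusted p = 0.042; -0.56 and under the fold of 1.5 without neutrophil-rich and monocyte-rich cells), and Clec2d at 9.23 and 7.08 CPM in adult and 25.4 and 23.8 CPM in vitro (1.58 ± 0.21, adjusted p = 0.00010). Over the 21 genes, 8 rose and 7 fell in vitro against adult (all genes: 22.4% and 28.5%), 6 and 5 in slice 1 day (24.9% and 25.4%), 7 and 2 in slice 1 week (15.0% and 13.6%) and 4 and 2 in slice 3 weeks (18.0% and 17.5%). From slice 1 day to slice 3 weeks 4 rose and 4 fell (13.9% and 12.8%), with a median of -0.26. Mrc1 and Cd209a of this list also stand in the marker lists of macrophages and dendritic cells.

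The genes with the most similar profile over the 10 libraries were taken from 6539 genes with at least 20 CPM in the mean of a group, by the root mean square difference of log2(CPM + 1) after centring each gene. For Clec4d they were Cd36 (0.73), Cfp (0.81) and Dab2 (0.90), and for Clec4n they were Cd38 (0.62), Gsn (0.62) and Gas7 (0.80). Clec12a had Cd38 (0.60), Gas7 (0.62) and Mgst1 (0.68), so Cd38 and Gas7 stood near both. Clec4e had Pygl (0.57), Angptl4 (0.57) and Tuba4a (0.60), and Clec4a1 had Ednrb (0.74), Ms4a6c (0.77) and AI662270 (0.80). Clec4a2 had Ms4a6b (0.74), Dok3 (0.92) and Lst1 (0.93), and Clec4a3 had Rnase6 (0.59), Slc40a1 (0.62) and Pid1 (0.67). Clec5a had the closest companions, Tuba1a (0.19), 2410016O06Rik (0.20) and Bin2 (0.23), on a profile that varied least. Among the members, the nearest pairs were Clec4a2 with Clec4a3 (0.80), Clec4d with Clec4n (0.81) and Clec4n with Clec12a (1.00). The distance is a description over 10 libraries, in which cells, depth and group are shared, and has no p.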

How the data were processed

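Microglia of 10 libraries in 5 groups of 2 were measured by droplet 3' RNA sequencing (10x v2). The deposited tables hold UMI counts per gene and cell, which the authors made with Cell Ranger 1.3.0 on mm10, as the submitters' processing notes state. The aligner settings and the use of strand were not given in the sources used here. Cells with at most 5% mitochondrial UMIs, at least 400 genes and at most 30000 UMIs were kept (19059 of 19637); no doublet caller was run. Depth ran from 385373 to 39689540 UMIs per library.

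Counts were summed per library, filtered (filterByExpr, minimum count 10), TMM-scaled and fitted in 1 model of all libraries by the quasi-likelihood test of edgeR 4.0.16 (R 4.3.3), with Benjamini-Hochberg adjustment over 12155 genes; the biological coefficient of variation was 18.2%. Scripts were tested on simulated data. Cells were thinned to 1800 UMIs for shares. The members, gene lists, marker lists and tests were chosen with earlier results of these data known, and the limits of 2% and 0.1% for cells rich in neutrophil or monocyte genes after seeing the data. From the signalling list the text names the 3 adaptors, Syk, Card9 and the genes with the largest called changes (up to 3 in each direction per comparison), and from the other lectins those with at least 20 CPM in a group. The replicate numbers do not pair libraries: deviations of same-numbered libraries correlated from -0.135 to 0.123 over 10 pairs of groups. Alternatives were DESeq2 1.42.0, other scalings, no filters, thinned cells, the study label as a covariate, a replicate block and leaving out each library.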

Additional observations from a re-analysis of the deposited data

Results flagged for a closer look

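Clec4a1 had effects of opposite direction in different cultures against the same adult libraries: its level was above adult in vitro, in slice 1 day and in slice 1 week and below adult in slice 3 weeks. The differences themselves were tested in the edgeR model. Slice 3 weeks differed from slice 1 day by a log2 fold change of -4.68, from slice 1 week by -3.81, and in vitro differed from slice 3 weeks by 5.29. In slice 1 day, 36.7% and 29.9% of Clec4a1 UMIs were in the cells with over 0.1% of UMIs in the monocyte list, and without these and the neutrophil-rich cells the difference between slice 3 weeks and slice 1 day was -4.23.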

How the results depend on the processing

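Between cultures, 315 values of single members kept their direction and call under settings other than leaving out a library, 11 turned direction, 23 gained a call and 3 lost it. With UMIs per cell, a scale that moved the median of all genes to 2.04 in vitro against adult, the adaptor and signalling genes called were 30 (in vitro), 23 (slice 1 day) and 13 (slice 3 weeks) against adult, and 25 between in vitro and slice 3 weeks, and the sign against adult turned for Clec5a (0.14 in vitro, 1.18 in slice 1 day, 0.54 in slice 1 week and 0.38 in slice 3 weeks), Clec4a3 (1.33 in vitro and 0.28 in slice 1 day) and Clec4a2 (0.85 in slice 1 day and 0.43 in slice 1 week). The share of higher calls among all genes called in vitro against adult was 44.0%, and 29.9% with library size alone and 94.5% with UMIs per cell. From slice 1 day to slice 1 week, 2 members were called with UMIs per cell, 4 with no filter, 0 in thinned cells, 2 without neutrophil-rich cells and 2 without these and monocyte-rich cells. In that comparison Clec4n turned to -0.085 (library size), -0.35 (UMIs per cell), -0.081 (no filter), -0.010 (all barcodes), -0.67 (thinned) and -0.055 (DESeq2), and Clec4a2 to 0.14 (thinned). From 1 week to 3 weeks Clec5a turned to 0.028 (no filter), 0.43 (thinned), 0.19 (without neutrophil-rich cells) and 0.17 (without both kinds). Leaving out each library gave 0 to 1 called members for 1 week against 1 day, 6 to 7 for 3 weeks against 1 day, 0 to 6 for 3 weeks against 1 week and 7 to 8 in vitro against 3 weeks. Against adult it gave 6 to 7 in vitro, 5 to 6 in slice 1 day, 5 to 7 in slice 1 week and 6 to 8 in slice 3 weeks. For the adaptor and signalling genes it gave 12 to 20 in vitro against adult, 9 to 15 in slice 1 day, 15 to 20 in slice 3 weeks and 6 to 14 in vitro against slice 3 weeks, where 12 and 6 are the counts without in vitro replicate 2. Members ranged from -2.42 to 0.023 (Clec4d, 3 weeks against 1 week), -0.69 to 0.26 (Clec4n), -1.40 to 0.94 (Clec4e) and -1.45 to 0.35 (Clec4a2, all 1 week against 1 day) and -0.51 to 0.31 (Clec5a, 3 weeks against 1 week). Without slice 1 week replicate 1 the count for 3 weeks against 1 week was 0, and without it or slice 1 day replicate 1 that for 1 week against 1 day was 0. A lone library was assumed to vary like the other groups. The cause of these changes was not tested. Leaving out cells with 3 or more neutrophil or monocyte genes was not run, since it leaves no cell in slice 1 week replicate 1. The 61 and 148 cells of slice 1 week limit what can be seen there.

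With the replicate number as a block, the count of called members was 1 for 1 week against 1 day, 6 for 3 weeks against 1 day, 5 for 3 weeks against 1 week and 7 in vitro against 3 weeks, and no count moved by over 1.5 times. The samples share only a number.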
